A study of Mus musculus with 8 samples.

Results

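Germ cells use a set of genes for meiosis, for the silencing of transposons and for the making of eggs and sperm that most other tissues keep switched off. Here 32 such germline and meiosis genes were followed in mouse kidney. They were taken by name from the 49315 genes of the deposited count table, through the Ensembl gene IDs and the symbols of GENCODE M21, and all 32 were found. Messenger RNA had been sequenced in bulk from 4 control kidneys, called wild type in the extraction protocol, and from 4 kidneys in which Kdm1a had been knocked out conditionally. The gene encodes LSD1, a histone demethylase that removes methyl groups from histone H3. The Cre driver, the floxed alleles, the strain, the age and the sex of the animals are not given in the sources used here, so the cells meant to lose the gene are not known from them. The labels number the kidneys but do not say that each came from its own animal, so p-values measure the spread between these libraries.

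In germ cells, RNA-binding proteins such as DAZL and DDX4 mark the lineage, and the piRNA pathway uses small RNAs to silence transposons. At meiosis, cohesins and the synaptonemal complex hold chromosomes together while the recombinase DMC1 pairs broken DNA with the homolog. In somatic cells many of these genes are held silent at promoters rich in CG dinucleotides, by DNA methylation and by a variant Polycomb complex whose DNA-binding members include E2F6 and the MGA and MAX pair. LSD1 is a subunit of corepressor complexes with histone deacetylases. The kidney is somatic and lies next to the adrenal gland and, before and around birth, close to the gonad.

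The libraries held between 19524945 and 28544511 counts. Levels are given as counts per 1000000 (CPM) with library sizes scaled by TMM, and 3 counts stood for 0.105 to 0.154 of these before scaling. Kdm1a itself was lower in knockouts. It stood at 110, 112, 120 and 110 CPM in controls 1 to 4 and at 94.0, 95.3, 90.9 and 94.2 CPM in knockouts 1 to 4, with no overlap, and counts over a whole gene also read transcript outside a deleted exon. Six2, a gene of nephron progenitors, lay between 96.9 and 219 CPM in the 8 libraries, while genes of mature nephron segments varied much more. Umod, of the thick ascending limb, ranged from 27.6 to 293 CPM in controls and from 0.0502 to 12.8 CPM in knockouts, and control 2 was the lowest control. Xist, expressed from an inactive X chromosome, reached 965, 1086 and 1047 CPM in control 2, knockout 1 and knockout 4 and at most 6.14 CPM elsewhere. The Y-linked gene Ddx3y was at most 1.08 CPM in those 3 libraries and at least 75.5 CPM in the other 5. In whole tissue, fewer cells of a type and less RNA per cell cannot be told apart.

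Control 2 stood apart from the other controls in nearly every germline gene. It held the highest level among the controls for 30 of the 32 genes and the highest of all 8 libraries for 27, against 33.8% and 13.4% of all genes with at least 1 count (10.1% of the genes tested with all 8 libraries). The exceptions among controls were Ldhc, a testis lactate dehydrogenase, and Hspa1l, a heat-shock protein of the testis. Against all 8 libraries the further exceptions were Rec8, Dmc1 and Brdt. Summed over the 32 genes, control 2 had 201 CPM, the other controls had 45.8, 43.5 and 43.1 CPM, and the knockouts had 78.3, 99.1, 76.5 and 85.4 CPM. The 3 other controls lay close together, and the 4 knockouts lay between them and control 2. Most of the gap between the knockouts and those 3 controls came from Rec8, Dmc1 and Brdt, which summed to 28.6, 27.5 and 27.2 CPM in controls 1, 3 and 4, 42.4 CPM in control 2 and 56.6, 76.0, 56.8 and 60.2 CPM in knockouts 1 to 4. The other 29 genes summed to 17.2, 16.0 and 15.9 CPM in controls 1, 3 and 4, 158 CPM in control 2 and 21.7, 23.2, 19.7 and 25.2 CPM in knockouts. A single library has no replicate, so the values of control 2 are a description and carry no test. Its germline levels were already known to stand apart when these comparisons were set. The shares of all genes beside them are therefore a description too.

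**Figure D1:**
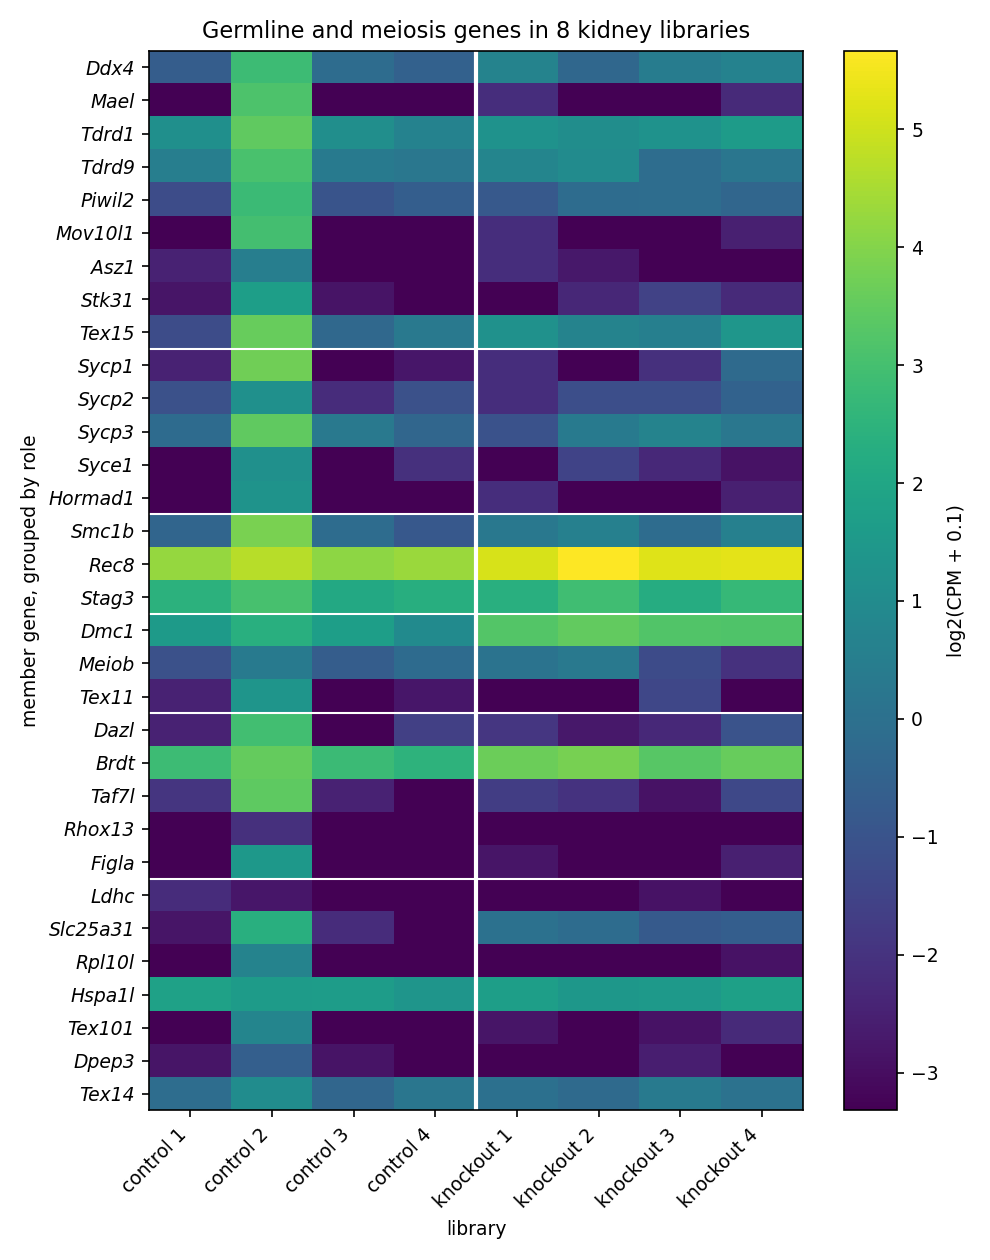
Level of each of the 32 germline and meiosis genes (rows, grouped by role) in each of the 8 libraries (columns), as colour on a log2(CPM + 0.1) scale. Control 2 is the highest column for 27 of the 32 genes, while Rec8, Dmc1 and Brdt are highest in a knockout.

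The number of germline genes detected also set control 2 apart. With at least 3 counts taken as detected, control 2 detected 31 of the 32 genes and controls 1, 3 and 4 detected 17, 16 and 17. The knockouts detected 23, 18, 21 and 22. Control 2 had the fewest counts of the controls, 21173646 in all, so the extra genes did not come with more depth. The gene it did not detect was Ldhc, at 1 count. Rhox13, a homeobox gene of germ cells, had 3 counts in control 2 and 0 in the other 7 libraries.

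Promoter sequences are shown for 6 members that carry the patterns described below: Dmc1, called higher in knockouts with and without control 2, Brdt and Slc25a31, called higher in the main test only without control 2, and Mael, Taf7l and Dazl, high in control 2 alone. They come from RefSeq (GRCm38.p6), whose table matched 28 of the 32 genes and had no entry for Tex15, Meiob, Tex11 and Piwil2. Each is the stretch before the gene's start in RefSeq or in the deposited table, whichever lies further upstream, printed 5′ to 3′ on the gene's strand in lower case. Capitals mark TCCCGC or its complement GCGGGA, a motif of the kind E2F6 binds, and the E-box CACGTG, of the kind MGA and MAX bind. The 2 motifs do not overlap in these stretches.
Dmc1 (chr15:79605110-79605359, minus strand): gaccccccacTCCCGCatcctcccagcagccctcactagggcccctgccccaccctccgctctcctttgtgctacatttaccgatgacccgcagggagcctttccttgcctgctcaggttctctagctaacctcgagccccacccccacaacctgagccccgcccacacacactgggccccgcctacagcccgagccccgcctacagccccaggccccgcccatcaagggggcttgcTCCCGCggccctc
Brdt (chr5:107330944-107331158, plus strand): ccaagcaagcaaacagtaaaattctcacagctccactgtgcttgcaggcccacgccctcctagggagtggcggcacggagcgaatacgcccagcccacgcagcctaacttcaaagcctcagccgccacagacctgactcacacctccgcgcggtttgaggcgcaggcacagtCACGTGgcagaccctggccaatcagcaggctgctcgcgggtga
Slc25a31 (chr3:40708621-40708854, plus strand): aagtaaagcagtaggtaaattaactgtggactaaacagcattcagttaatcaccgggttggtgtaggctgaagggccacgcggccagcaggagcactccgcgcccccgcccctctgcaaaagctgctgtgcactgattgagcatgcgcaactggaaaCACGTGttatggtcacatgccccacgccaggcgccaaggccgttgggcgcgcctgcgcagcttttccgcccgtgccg
Mael (chr1:166238748-166238994, minus strand): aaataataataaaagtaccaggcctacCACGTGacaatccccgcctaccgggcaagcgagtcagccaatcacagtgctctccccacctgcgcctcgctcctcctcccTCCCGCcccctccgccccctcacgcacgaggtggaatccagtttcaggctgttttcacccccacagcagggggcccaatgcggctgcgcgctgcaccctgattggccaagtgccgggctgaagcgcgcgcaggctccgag
Taf7l (chrX:134476491-134476740, minus strand): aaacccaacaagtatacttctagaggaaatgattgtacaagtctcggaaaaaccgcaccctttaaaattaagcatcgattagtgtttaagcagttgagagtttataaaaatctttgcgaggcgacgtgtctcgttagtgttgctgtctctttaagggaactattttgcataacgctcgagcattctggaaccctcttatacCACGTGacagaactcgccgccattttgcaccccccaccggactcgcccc
Dazl (chr17:50293621-50293870, minus strand): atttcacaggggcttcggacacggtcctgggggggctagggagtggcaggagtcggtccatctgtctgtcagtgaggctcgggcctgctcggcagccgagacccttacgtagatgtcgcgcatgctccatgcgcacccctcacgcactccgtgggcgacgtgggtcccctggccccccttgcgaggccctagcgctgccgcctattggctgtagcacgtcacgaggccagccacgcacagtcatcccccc
Positions are those of a motif's first base, counted back from the last printed base as 1. In Dmc1, TCCCGC lay at 240 and 13 bases. In Brdt, CACGTG lay at 43 bases, in Slc25a31 at 77 and in Taf7l at 49. Mael held both motifs, CACGTG at 220 and TCCCGC at 140 bases. Further matches, TCCCGC in Slc25a31 and GCGGGA in Mael, lay after the RefSeq start and are not printed, and neither motif was found in the Dazl window.

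Motifs were counted on both strands in windows of 300 bases, from 250 before to 50 after each RefSeq start, and a gene with several starts was counted once, if any window held the motif. TCCCGC was present in 12 of the 28 germline windows (42.9%), against 22.0% of 27025 genes. The E-box CACGTG was present in 13 of 28 (46.4%), against 8.09% of all genes, and either motif was in 18 of 28 (64.3%), against 27.5%. The germline windows were also richer in CG, with a median of 18.5 CG dinucleotides against 8 for all genes. At least 15 CG were found in 20 of 28 (71.4%), against 37.1%. The shares are not adjusted for CG content, and no test was made of them. A match is a run of letters, and binding was not measured.

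To ask which germline genes differed by genotype, knockouts were set against controls in the edgeR quasi-likelihood test. A gene is called, and said to rise or fall, where its Benjamini-Hochberg p over all tested genes was under 0.05. The test was run with all 8 libraries and again with control 2 left out. The same 15 of the 32 germline genes had enough counts to be tested in both. With all 8 libraries, Dmc1 and Rec8 rose in knockouts, which is 2 of 15 (13.3%) against 6.61% of all 18485 genes, and 0 fell, against 8.27%. Without control 2, Dmc1, Rec8, Brdt, Slc25a31 and Tex15 rose, which is 5 of 15 (33.3%) against 18.4% of all 18953 genes, and 0 fell, against 19.0%. In that comparison Slc25a31 had enough counts only through the knockouts, so it could enter only as a higher gene. At an unadjusted p under 0.05 edgeR also gave 0 lower members in both comparisons, as did DESeq2 without control 2 and limma-voom with all 8 libraries. DESeq2 with all 8 libraries gave a p for only 7 of the 15. The share of members called higher was above that of all genes in both comparisons, but on only 2 and 5 genes. In either direction the calls covered 13.3% and 33.3% of the members tested, below the 14.9% and 37.4% of all genes.

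The direction of the other tested genes turned on control 2. Of the 15, 4 had a log2 fold change above 0 with all 8 libraries and 14 without control 2. Slc25a31, tested there through the knockouts alone, is among those 14. So are Tex15, Piwil2 and Meiob, which needed knockouts to be tested, so the 14 and the median without control 2 partly depend on the filter. The median of the 15 was -0.80 with all 8 libraries and 0.71 without control 2, beside 0.0044 and 0.0115 for all genes. The 4 knockouts lay above all 4 controls for 2 members, Dmc1 and Rec8, against 9.29% of all genes tested. Without control 2 they lay above all controls for 5 of 15, the same 5 genes that were called, against 22.2% of all genes. For 0 members did the knockouts lie below all controls, against 9.58% and 22.5% of all genes tested.

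**Figure D2:**
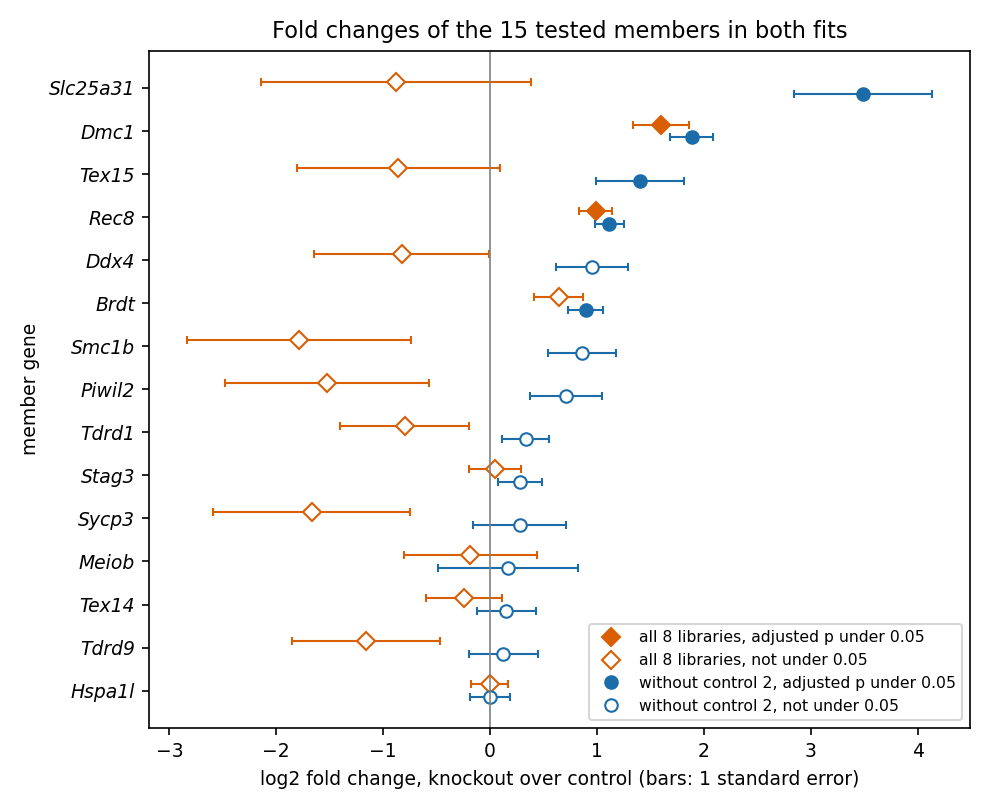
Log2 fold change of knockout over control (horizontal axis, bars 1 standard error) for the 15 tested germline genes, with all 8 libraries (diamonds) and without control 2 (circles). Filled symbols have an adjusted p under 0.05: 2 genes with all 8 libraries and 5 without control 2.

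Dmc1 and Rec8 rose in knockouts whether or not control 2 was counted. Dmc1 (ENSMUSG00000022429, chr15:79561500-79605084, GRCm38), the recombinase of meiotic strand exchange, had 2.87, 4.96, 3.15 and 1.86 CPM in controls 1 to 4 and 9.54, 11.1, 9.31 and 9.03 CPM in knockouts 1 to 4. Every knockout was above every control, control 2 included. The log2 fold change was 1.60 (SE 0.26, adjusted p = 0.0132) with all 8 libraries and 1.89 (SE 0.20, adjusted p = 0.000881) without control 2, where the means were 2.63 ± 0.675 CPM (SD, n = 3) and 9.76 ± 0.949 CPM (SD, n = 4). Of the other recombination genes, Meiob was tested and not called, and Tex11 had too few counts to be tested. Meiob, a partner of the single-strand binding proteins at meiotic breaks, lay between 0.369 and 1.21 CPM in controls and between 0.144 and 1.15 CPM in knockouts, so the groups overlapped. Tex11, an X-linked crossover gene, had 53 counts in control 2 and at most 8 in any other library.

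Rec8 (chr14:55618037-55625395), the meiotic kleisin subunit of cohesin, was the most abundant member per transcript length, at a mean of 14.7 reads per 1000 bases per 1000000 (RPKM, from the deposited gene lengths) in knockouts and 6.78 in controls 1, 3 and 4. Its levels were 18.6, 25.8, 17.5 and 19.8 CPM in controls 1 to 4 and 34.5, 50.7, 37.6 and 39.2 CPM in knockouts 1 to 4. The groups did not overlap. The log2 fold change was 0.99 (SE 0.15, adjusted p = 0.0122) with all 8 libraries and 1.12 (SE 0.13, adjusted p = 0.000999) without control 2. With all 8 libraries, the calls of Rec8 and Dmc1 were lost when knockout 4 was left out (adjusted p = 0.0524 and 0.0530), at log2 fold changes of 1.02 and 1.65.

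The remaining meiotic cohesins were highest in control 2 and were not called by genotype. Smc1b (chr15:85064691-85131957), the meiotic SMC subunit, had 0.655, 14.4, 0.807 and 0.455 CPM in controls 1 to 4 and 1.10, 1.41, 0.796 and 1.40 CPM in knockouts 1 to 4. Control 2 was 22.2 times the other controls together (95% interval for counting error 16.3 to 31.0). The knockouts overlapped the other controls in knockout 3 only, and the log2 fold change was -1.79 (SE 1.05, adjusted p = 0.249) with all 8 libraries and 0.86 (SE 0.32, adjusted p = 0.0640) without control 2. Leaving out knockout 3 as well gave 1.01 and an adjusted p of 0.030. That step takes out the overlapping library, so its call carries no weight. Smc1b was called in 1 of 13 alternatives without control 2, and the edgeR adjusted p reached 0.450. Stag3, the meiotic STAG subunit, differed little between libraries, at 5.41, 8.25, 4.20 and 4.82 CPM in controls 1 to 4 and 4.94, 7.38, 4.67 and 6.40 CPM in knockouts 1 to 4. Its groups overlapped in both comparisons.

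Among genes of transcription and RNA binding, Brdt was the one tested. Brdt (chr5:107331159-107387058), a testis bromodomain protein that reads acetylated histones, had 7.09, 11.6, 6.90 and 5.50 CPM in controls 1 to 4 and 12.5, 14.1, 9.90 and 12 CPM in knockouts 1 to 4. Control 2 lay within the range of the knockouts, and the other 3 controls lay below all of them. The log2 fold change was 0.64 (SE 0.23, adjusted p = 0.0831) with all 8 libraries and 0.90 (SE 0.16, adjusted p = 0.00420) without control 2. The second comparison rests on means of 6.50 ± 0.868 CPM (SD, n = 3) and 12.1 ± 1.74 CPM (SD, n = 4).

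**Figure D3:**
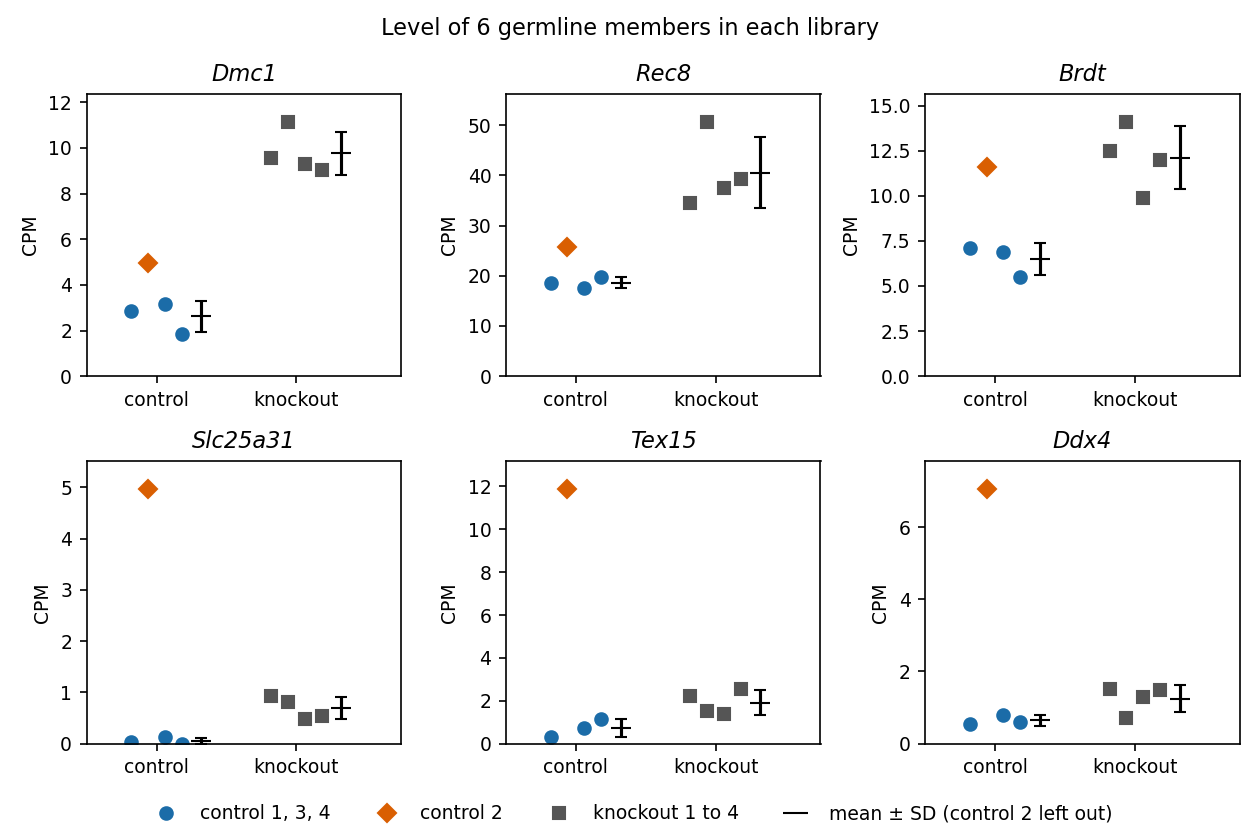
Level of 6 germline genes in each library (CPM, linear axes from 0), with control 2 as a diamond, the other controls as circles, the knockouts as squares, and mean ± SD without control 2 as bars. Dmc1 and Rec8 do not overlap between groups, Brdt, Slc25a31 and Tex15 do not overlap once control 2 is set aside, and Ddx4 overlaps in knockout 2.

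The other genes of this role were read almost only in control 2. Dazl (chr17:50279394-50293599), a germ cell translation regulator, had 2, 164, 0 and 5 counts in controls 1 to 4 and 4, 1, 3 and 11 in knockouts 1 to 4, so control 2, at 7.60 CPM, was 77.3 times the other controls together (95% interval 36.7 to 195). Taf7l (chrX:134460118-134476490), a germ cell paralog of a TFIID subunit, had 4, 234, 2 and 0 counts in controls and 5, 3, 1 and 8 in knockouts, and control 2 was 129 times the other controls (58.3 to 354). Figla, a transcription factor of oocytes, had 57 counts in control 2, 0 in the other controls and 1, 0, 0 and 2 in knockouts. These genes had too few counts outside control 2 for the test of genotype. Set against controls 1, 3 and 4, the pooled knockout rate was 1.93 times for Dazl (95% interval for counting error 0.776 to 5.42) and 2.01 times for Taf7l (0.757 to 6.23), and both intervals include 1.

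In the piRNA pathway and germ granule group, 5 of 9 members were tested, and Tex15 was the only one called by edgeR, in the comparison without control 2. Tex15 (chr8:33516738-33585582), which acts in transposon silencing and meiotic recombination, had 0.328, 11.9, 0.726 and 1.14 CPM in controls 1 to 4 and 2.24, 1.51, 1.38 and 2.55 CPM in knockouts 1 to 4. Control 2 was the highest library by far, and the other controls lay below all knockouts. Control 1 had too few counts for the filter, so without control 2 Tex15 was tested only with the help of knockouts. The log2 fold change was -0.86 (SE 0.95, adjusted p = 0.542) with all 8 libraries and 1.40 (SE 0.42, adjusted p = 0.0291) without control 2. That call was lost on leaving out control 1 (adjusted p = 0.0717), control 3 (0.0838), knockout 1 (0.0618) or knockout 4 (0.0734), and with a Y-linked covariate (0.121). Limma-voom with sample weights, over all 8 libraries, gave Tex15 a log2 fold change of 1.43 (adjusted p = 0.0449).

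Ddx4 (chr13:112598333-112652310), the Vasa helicase of germ granules, had 0.533, 7.05, 0.807 and 0.591 CPM in controls 1 to 4 and 1.52, 0.703, 1.28 and 1.47 CPM in knockouts 1 to 4. Knockout 2 lay among the other controls and the remaining knockouts above them. The log2 fold change was -0.83 (SE 0.82, adjusted p = 0.491) with all 8 libraries and 0.95 (SE 0.33, adjusted p = 0.0525) without control 2, and 1.14 with an adjusted p of 0.0185 when knockout 2 was also left out. That step takes out the overlapping library, so its call carries no weight. Ddx4 was called in 1 of 13 alternatives without control 2, and the edgeR adjusted p reached 0.467. Piwil2, a PIWI protein that carries piRNAs, had 0.328, 6.86, 0.404 and 0.545 CPM in controls 1 to 4 and 0.465, 0.803, 0.830 and 0.683 CPM in knockouts, with overlap. Tdrd1, a Tudor scaffold of germ granules, had 2.13, 11, 2.06 and 1.5 CPM in controls and 2.28, 2.01, 2.28 and 2.99 CPM in knockouts. Tdrd9, a Tudor helicase, had 1.35, 8.35, 1.21 and 1.09 CPM in controls and 1.60, 1.91, 0.830 and 1.04 CPM in knockouts. In Piwil2, Tdrd1 and Tdrd9 alike, control 2 was above all libraries and the knockouts overlapped the other controls.

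Mael and Mov10l1 were nearly absent outside control 2. Mael (chr1:166201201-166238747), a piRNA pathway protein of the nuage, had 190 counts in control 2, 0 in the other controls and 3, 0, 0 and 3 in knockouts. Against a floor of 3 counts over the other 3 controls, control 2 was at least 209-fold higher. Mov10l1 (chr15:88982909-89055152), the helicase that starts piRNA production, had 168 counts in control 2, 0 in the other controls and 3, 0, 0 and 2 in knockouts, and was at least 185-fold higher in control 2. In both genes the few counts of the knockouts were in knockouts 1 and 4. Stk31 had 69 counts in control 2 and at most 7 in any other library, and Asz1, a germ granule protein of mitochondria, had 29 and at most 3.

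Synaptonemal complex genes showed the same single library. Sycp1 (chr3:102818499-102936100), the transverse filament, had 283 counts in control 2 (13.1 CPM), 2, 0 and 1 in the other controls and 3, 0, 4 and 21 in knockouts 1 to 4. Knockout 4 held 21 of the 28 knockout counts. Sycp3 (chr10:88459569-88473236), of the lateral element, had 0.778, 10.9, 1.13 and 0.682 CPM in controls 1 to 4 and 0.380, 1.20, 1.52 and 1.08 CPM in knockouts 1 to 4. Its groups overlapped with or without control 2, and its exons overlap those of Chpt1 on the opposite strand, whose reads cannot be told apart unless strand was used. Sycp2, the other lateral element protein, reached 2.18 CPM in control 2 and lay between 0.121 and 0.612 CPM in the other 7 libraries. Syce1, of the central element, had 47 counts in control 2 and at most 5 elsewhere. Hormad1, which binds the unsynapsed chromosome axis, had 51 counts in control 2, 0 in the other controls and at most 3 in a knockout.

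Slc25a31 showed the largest change of the tested genes without control 2. Slc25a31 (chr3:40708855-40726096), the germ cell ADP/ATP carrier of mitochondria, had 1, 107, 3 and 0 counts in controls 1 to 4 and 22, 16, 14 and 15 in knockouts 1 to 4. The levels were 0.041, 4.96, 0.121 and 0 CPM in controls and 0.929, 0.803, 0.484 and 0.540 CPM in knockouts. Every knockout was above controls 1, 3 and 4 and below control 2. Without control 2, Slc25a31 had enough counts to be tested only through the knockouts. At these control counts it could enter that test only as a higher gene. The log2 fold change was -0.88 (SE 1.26, adjusted p = 0.642) with all 8 libraries and 3.49 (SE 0.65, adjusted p = 0.00461) without control 2, and that call held when any 1 further library was left out. In limma-voom with sample weights and all 8 libraries, Slc25a31 was at 2.72 (adjusted p = 0.0148). From the pooled counts, 67 in knockouts and 4 in controls 1, 3 and 4, the rate was 11.9 times higher (95% interval for counting error 4.43 to 44.9). Unlike Tex15 and Ddx4, Slc25a31 was at or near 0 in the 3 other controls.

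The remaining testis-type genes did not pass the test of genotype or were hardly read. Hspa1l had 3.40, 2.97, 3.03 and 2.45 CPM in controls 1 to 4 and 3.17, 2.61, 2.73 and 3.31 CPM in knockouts 1 to 4, with groups that overlapped in full. Its exons overlap those of Gm10501 on the opposite strand. Tex14, of the bridges between germ cells, reached 1.95 CPM in control 2 and lay between 0.686 and 1.18 CPM elsewhere. Rpl10l, a ribosomal protein of the testis, had 33 counts in control 2 and 1 in the other 7 libraries together. Tex101, a surface protein of germ cells, had 35 counts in control 2, 0 in the other controls and at most 3 in a knockout. Dpep3, a testis dipeptidase, had 12 counts in control 2 and at most 2 elsewhere, and Ldhc had at most 3 counts in any library. Rpl10l is close in sequence to its parent gene, and how reads matching several genes were counted is not given in the sources used here.

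Markers of neighbouring tissues were read beside these values. Of 14 oocyte genes, control 2 was the highest of all 8 libraries in 10 and detected 13 with at least 3 counts, against 3 to 8 in the other libraries. Sohlh1 and Nobox, transcription factors of early oocytes, stood at 4.73 and 3.76 CPM in control 2 and at most at 0.18 and 0.136 CPM in any other library. Spermatid genes were hardly read: 3 of 10 were detected in control 2 and 1 to 5 in the others, with the protamine genes Prm1 and Prm2 at 0 counts in control 2. Of 14 granulosa genes, 7 were highest in control 2. Foxl2, which defines granulosa cells, had 21 counts in control 2, 8 in knockout 1 and at most 3 elsewhere, while Cyp19a1 and Fshr had 1 and 2 counts in control 2 and 0 in all others. The summed level of that list was 375 CPM in control 2, 273 to 290 CPM in the other controls and 289 to 356 CPM in knockouts, most of it from Wnt4 and Rspo1, which the kidney also expresses. Of 11 granulosa genes tested, 0 were called higher and 1 lower with all 8 libraries. Without control 2, 2 were called higher (18.2%, against 18.4% of all genes) and 1 lower (9.09%, against 19.0%).

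**Figure D4:**
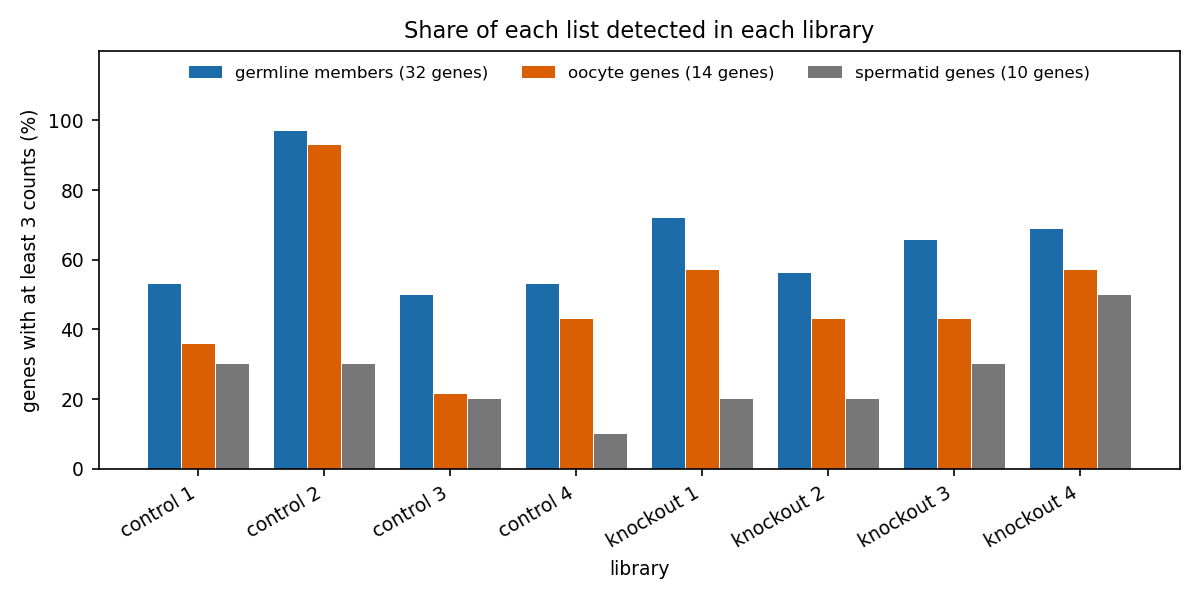
Share of 3 gene lists with at least 3 counts (percent, vertical axis) in each of the 8 libraries (horizontal axis), with bars for the 32 germline genes, 14 oocyte genes and 10 spermatid genes. Control 2 detects 31 germline and 13 oocyte genes but 3 spermatid genes, and no other library detects more than 23 germline or 8 oocyte genes.

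Of 12 Sertoli genes, 3 were highest in control 2, and Dmrt1, a transcription factor of Sertoli cells, had 0 counts there. Their sum was 103 CPM in control 2, 65.3 to 82.8 CPM in the other controls and 98.8 to 117 CPM in knockouts. Of 8 Sertoli genes tested, 0 were called with all 8 libraries. Without control 2, 3 were called higher (37.5%, against 18.4% of all genes) and 0 lower (against 19.0%). Gata4, a gonadal transcription factor, had 83 counts in control 2, at most 3 in the other controls and 14 to 32 in knockouts. Of 9 adrenal genes, 0 were highest in control 2. Their sum was 1879 CPM in knockout 1, 225 CPM in knockout 4, 103 CPM in control 4 and 5.47 to 23.3 CPM in the other 5 libraries. The part of these tissues in the germline values was not tested. With the 3 libraries rich in adrenal genes left out, Dmc1 had a log2 fold change of 1.48 (adjusted p = 0.259) and Rec8 of 1.09 (adjusted p = 0.278) over 3 controls and 2 knockouts. Without control 2 as well, with 2 libraries in each group, the values were 1.76 for Dmc1, 1.29 for Rec8, 0.77 for Brdt, 2.88 for Slc25a31 and 1.44 for Tex15, with adjusted p from 0.0564 to 0.136. In that comparison edgeR called 0 of 18755 genes, with 5112 at an unadjusted p under 0.05. These 5 genes kept their direction and lost their call, on fewer libraries. No other tool was run on them.

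Germline levels were also read beside Xist, which was high in control 2 and in knockouts 1 and 4. The 17 members with too few counts for the test held 1476 counts in all in control 2, 26, 7 and 18 in controls 1, 3 and 4, and 29, 19, 40 and 74 in knockouts 1 to 4. Knockout 4 was the highest of the knockouts, and knockout 1 lay between knockouts 2 and 3. In Mael, Mov10l1, Hormad1 and Figla the counts of the knockouts lay in knockouts 1 and 4 alone. Other members went the other way. Tex11, Dpep3 and Ldhc had 8, 2 and 1 counts in knockout 3 and 0 in the other knockouts. In knockouts 1 to 4, Stk31 had 0, 2, 7 and 3 counts and Syce1 had 0, 5, 3 and 1. The part of sex in these levels was not tested. Knockouts 1 and 4 were also the knockouts richest in adrenal genes, so high Xist and adrenal content cannot be told apart among the knockouts. A further comparison used the 5 libraries with high Y-linked levels, which are controls 1, 3 and 4 and knockouts 2 and 3. There 4 of the 15 tested members, Brdt, Dmc1, Rec8 and Slc25a31, were called higher, against 8.85% of 18944 genes. Slc25a31 had enough counts there only through the knockouts and could enter only as a higher gene. The members' median log2 fold change was 0.66.

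The genes whose pattern was most like the members' high level in control 2 were sought among the named genes of the table. Symbols of the Gm, Rik, BC or -ps type, genes on the Y chromosome and Xist were left out beforehand. Of the rest, 14293 genes had at least 20 counts in control 2. They were ranked by the ratio of control 2 to the highest other library, with fewer than 3 counts there read as 3. The first 10 of this ranking were Mael, Mov10l1, Dppa3, Cnpy1, Taf7l, Fkbp6, Sohlh1, Nobox, Nlrp4f and Dazl. Of these 4 are members, and 15 of the first 30 are. The high germline level of control 2 was known beforehand, so the place of members in this ranking is no independent finding. Dppa3, a gene of germ cells and oocytes, had 153 counts in control 2 and at most 3 elsewhere. Fkbp6, a meiosis and piRNA gene, had 118 and at most 4. Nlrp4f, of an oocyte family, had 73 and at most 2.

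A further list of 47 germ cell and meiosis genes outside the members gave 46 matches, of which 27 were tested. With all 8 libraries 1 rose (3.70%, against 6.61% of all genes) and 3 fell (11.1%, against 8.27%). Without control 2, 5 rose (18.5%, against 18.4%) and 3 fell (11.1%, against 19.0%), so the share called higher was near or below that of all genes. Their median log2 fold changes were 0.01 and 0.08, and control 2 was the highest of all 8 libraries for 22 of the 46. Meioc, which keeps germ cells in meiotic prophase, had 0.614, 1.21, 0.686 and 0.864 CPM in controls 1 to 4 and 2.96, 4.07, 4.22 and 3.67 CPM in knockouts 1 to 4. Its groups did not overlap, and the log2 fold change was 2.15 (SE 0.25, adjusted p = 0.00600) with all 8 libraries and 2.36 (SE 0.23, adjusted p = 0.000756) without control 2. The others called higher without control 2 were Hfm1, a crossover helicase (log2 fold change 1.24, adjusted p = 0.00409), Mei4 (2.60, 0.00528) and Spo11 (1.96, 0.0333), which act in meiotic break formation, and Tdrkh, a piRNA factor (0.44, 0.0262). Mei4 had 2, 4 and 2 counts in controls 1, 3 and 4, and Spo11 had 6, 6 and 0. Without control 2, both had enough counts to be tested only through the knockouts. At these control counts they could enter only as higher genes, and they are among the 5 that rose.

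Genes of that list also fell. Hsf2bp, of meiotic recombination, had 1.64 to 2.41 CPM in controls and 0.251 to 0.845 CPM in knockouts, with log2 fold changes of -1.69 in both comparisons (adjusted p = 0.0189 and 0.00706). Tdrd5, a Tudor protein, fell by 2.05 and 2.07 on the log2 scale, and Mcmdc2 by 1.21 and 1.34. The exons of Tdrd5 and Mcmdc2 overlap other genes on the opposite strand. Abundant members of the list, Zcwpw1, Syce2 and Trip13, did not pass the test in either comparison. Stra8, the gene that answers retinoic acid at meiotic entry, had 0 counts in all 8 libraries. Among oocyte genes Ooep rose in both comparisons, from 1.82 to 3.15 CPM in controls to 4.42 to 7.09 CPM in knockouts (log2 fold change 1.27, adjusted p = 0.0168 with all 8 libraries).

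Of 20 repressors known to act on germline genes, 19 were tested. In either direction 1 was called with all 8 libraries (5.26%, against 14.9% of all genes) and 5 without control 2 (26.3%, against 37.4%). With all 8 libraries the call was Kdm1a, the targeted gene itself (log2 fold change -0.27, SE 0.05, adjusted p = 0.0194). Without control 2, Mga (0.38, adjusted p = 0.00427) and the DNA methyltransferase gene Dnmt3a (0.29, 0.0112) rose, and Kdm1a (-0.27, 0.00691), the deacetylase gene Hdac1 (-0.28, 0.00988) and L3mbtl2 (-0.36, 0.0297), of the variant Polycomb complex, fell. E2f6, at 33.8 to 41.7 CPM in controls and 32.2 to 37.9 CPM in knockouts, and Pcgf6, at 28.4 to 32.9 and 28.0 to 33.3 CPM, did not pass the test in either comparison.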

How the data were processed

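RNA from 4 control and 4 conditional knockout mouse kidneys was enriched for messenger RNA with oligo-dT beads and made into NEBNext Ultra libraries, per the labels' protocols. Unnormalized read counts for each gene were deposited by the authors, beside exon coordinates and gene lengths, per the file headers. Their notes name Trimmomatic 0.36, STAR 2.5.2b, featureCounts of Subread 1.5.2, DESeq2 and the build GRCm38, per the submitters' processing notes. Strand and multi-mapping settings are not given in the sources used here, which limits genes with overlapping or near-identical copies. The table that joins all 8 libraries differed from theirs in 0 cells, and 345 of 49315 gene IDs had no symbol. The series design line names a histone mark, while the values are transcript counts.

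Counts were scaled by TMM, filtered with filterByExpr and tested over all genes with edgeR 4.0.16 (R 4.3.3) without covariates. Alternatives used DESeq2 1.42.0 and limma 3.58.1 (voom with sample weights), other filters, covariates and left-out libraries. The fit was tested on simulated data with equal spread for all genes, changes only in genes of higher counts and no library set apart. That simulation does not cover members with few counts or a library like control 2. Intervals of rate ratios are exact (Clopper-Pearson, 95%) and cover counting error only, and a floor of 3 counts was used for bounds. The germline genes and all lists were chosen with earlier results of these data known, so no list was tested as a set. Members were named where called in a comparison, where they reached 3 CPM in a library, or as Dazl, Ddx4, Sycp1 and Sycp3. Of other lists, called genes with the smallest adjusted p and the most abundant genes were named, but calls in the Sertoli and granulosa lists are given as counts. Other genes named, such as Figla, Foxl2, Gata4 and Stra8, were chosen after their values were seen. Further lists (Leydig and genital duct genes) were read. Of 4 Leydig genes tested without control 2, 0 were called. Of 7 genital duct genes tested there, 1 was called higher (14.3%, against 18.4% of all genes) and 1 lower (14.3%, against 19.0%). With all 8 libraries, 1 of 6 genital duct genes tested was called lower (16.7%, against 8.27%).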

Additional observations from a re-analysis of the deposited data

Results flagged for a closer look

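In 14 of the 38 groups of 4 libraries examined (19 named members, controls and knockouts apart), 1 library lay far from the other 3 by Dixon's criterion, with a gap of 0.930 to 1.0 of the group's range, above the 95% critical value for 4 samples. All 14 were control groups, and in each the library was control 2. The usual chance rate of 1 in 20 groups does not apply: members were named partly for reaching 3 CPM in any library, and all 14 did so in control 2 alone. These values are a description and no test of control 2.

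Control 2 stood at 7.05 CPM for Ddx4, 8.81 for Mael, 11 for Tdrd1, 8.35 for Tdrd9, 6.86 for Piwil2, 7.79 for Mov10l1, 3.20 for Stk31 and 11.9 for Tex15, all of the piRNA pathway and germ granule group. It stood at 13.1 CPM for Sycp1 and 10.9 CPM for Sycp3, of the synaptonemal complex, and at 14.4 CPM for the cohesin gene Smc1b. The level was 7.60 CPM for Dazl, 10.9 CPM for Taf7l and 4.96 CPM for Slc25a31. Members in which control 2 was not set apart in this way were Rec8, Stag3, Dmc1, Brdt and Hspa1l.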

How the results depend on the processing

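With all 8 libraries, 2751 genes were called, against 4506 with DESeq2, 8302 with limma-voom and sample weights, 1 with the 5 low-adrenal libraries (chosen after seeing the data, and fewer), and 153 to 7084 when 1 library was left out, the lowest without knockout 4 and the highest without control 2. Members called numbered 5 with voom, 4 in the libraries with high Y-linked levels, 0 with the low-adrenal libraries and 0 to 5 on leaving out 1 library, and their median log2 fold change was 0.46 with voom, 0.66 with high Y-linked libraries and -1.08 to 0.71 on leaving out 1. Without control 2, 7084 genes were called, against 4098 with a replicate block, 4715 with a Y-linked covariate, 0 with the low-adrenal libraries and 4541 to 7903 on leaving out 1 more, with 0 members called in the low-adrenal libraries and 4 to 6 on leaving out 1. Whether the numbers pair the libraries is not known. Same-numbered deviations correlated at -0.11, 0.33, 0.23 and -0.06, and the best-matching knockout was 3, 2, 3 and 3 for controls 1 to 4. The block gave 3229 calls with all 8 libraries, and 3 members called.

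Signs reversed with all 8 libraries as follows. Under voom the log2 fold changes were 0.70 for Ddx4, 0.22 for Tdrd1, 0.46 for Piwil2, 1.43 for Tex15, 0.57 for Smc1b, 2.72 for Slc25a31 and 0.0226 for Hspa1l. With a mean of at least 1 CPM Hspa1l was 0.0065. With the replicate block Ddx4 was 0.0898, Tex15 0.42 and Slc25a31 0.98. With high Y-linked libraries Ddx4 was 0.65, Tdrd1 0.18, Tdrd9 0.14, Piwil2 0.95, Tex15 0.99, Sycp3 0.66, Smc1b 0.75 and Slc25a31 3.38. Leaving out 1 library gave -1.15 to 0.95 for Ddx4, -0.0893 to 0.0836 for Hspa1l, -1.88 to 0.71 for Piwil2, -1.30 to 3.49 for Slc25a31, -2.16 to 0.86 for Smc1b, -0.0853 to 0.28 for Stag3, -2.01 to 0.28 for Sycp3, -1.08 to 0.33 for Tdrd1, -1.44 to 0.12 for Tdrd9 and -1.24 to 1.40 for Tex15. Without control 2, the replicate block gave -0.11 for Tdrd9 and 0.0561 for Hspa1l, and leaving out 1 more gave -0.0799 to 0.30 and -0.13 to 0.10. Why these values moved was not tested. Brdt was called with all 8 libraries under DESeq2 (adjusted p = 0.0351), voom (0.00224) and the block (0.0379). DESeq2 with all 8 libraries gave no p for 8 members, which are left out of the counts. Of single-gene values, 183 of 226 with all 8 libraries and 150 of 169 without control 2 kept direction and side of the threshold. Genes with fewer than 3 counts in most libraries allow no statement on genotype.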
